A study of Ovis aries with 30 samples.

Results

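Sheep lung and kidney at 10 weeks after birth were compared across 9155 genes on 10 arrays, 5 from lung and 5 from kidney. The arrays were chosen by the tissue and age in their labels out of 30 in the series. They keep the numbers of their titles, which are 7, 8, 10, 11 and 12 for lung and 7, 8, 9, 10 and 11 for kidney. RNA from frozen whole tissue was hybridised to an Affymetrix bovine array, so probes designed on cattle sequence read sheep transcripts, and the values are log2 expression. A step of 1 is a doubling. The labels name a tissue and an age (postnatal 10 weeks), and no strain, genotype, sex or treatment is used here. The other 20 arrays, 5 each of lung and kidney from fetuses at day 90 and from adults whose age is not given in numbers, were used for the estimate of spread and for the comparison of the tissue difference between ages. The study's title concerns a genetic program of growth and its pace in mammals, and lung against kidney shows which genes separate the organs at a juvenile age. The design text speaks of biological replicates and the labels do not tie a sample to an animal, so p-values refer to these samples. Standard errors and p-values of the main fit rest on the spread within groups, pooled over all 30 arrays, fetal and adult ones included. A standard error can therefore be wider than the 10-week arrays printed beside it would give.

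The lung exchanges gas across an alveolar wall made of thin type I cells, surfactant-secreting type II cells and a dense capillary bed, with ciliated and secretory epithelium in the airways and macrophages in the alveoli. The kidney filters plasma in the glomerulus and then recovers solutes along the nephron, mostly in the proximal tubule, a cell packed with mitochondria that also makes glucose. The loop of Henle, the distal convoluted tubule and the collecting duct then adjust salt, water and acid. In whole tissue, fewer cells of a type and less RNA per cell cannot be told apart.

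The 10 arrays had similar distributions, with medians between 6.62 and 6.81, and no pair of arrays held identical values. Arrays of one tissue correlated at 0.973 or above across genes, and lung with kidney arrays at 0.878 to 0.897. Lung array 12 stood furthest from its group. In it 232 genes lay more than 1 log2 unit from the median of the other 4 lung arrays, against 29 to 59 in those arrays and 23 to 60 in the kidney arrays. The labelled tissues were borne out by defining markers in all 10 arrays: the surfactant gene SFTPC measured at least 12.10 in lung and at most 5.88 in kidney, and the tubule gene UMOD at most 5.96 in lung and at least 12.44 in kidney. Several usual markers, among them SCGB1A1, NKX2-1, AQP2 and NPHS1, had no single-symbol probe set and were not analysed here.

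Lung and kidney differed in a large share of their genes, and the largest differences lay on the kidney side. Of 9155 genes, 4585 (50.1%) passed an adjusted p of 0.05 in limma, 2329 higher in lung (25.4%) and 2256 higher in kidney (24.6%), and the median difference over all genes was 0.01. For 3440 genes (37.6%) the 5 lung and 5 kidney arrays did not overlap, and 3329 of these had also passed the test. Differences of at least 1 log2 unit were found for 908 genes higher in lung and 822 higher in kidney. At 4 units or more the counts were 43 and 95, at 5 or more 8 and 51, and at 6 or more 3 and 28. The kidney thus held more of the largest differences, though the number of genes called was similar in both directions. The fit of the 10 arrays alone with the title number as a fixed block called 2242 and 2223 genes. Every list count below is read against the shares of 25.4% and 24.6%.

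The largest difference higher in lung was HTRA4, which encodes a secreted serine protease of the HtrA family. It measured 11.92, 12.07, 12.82, 12.50 and 12.09 in lung arrays 7, 8, 10, 11 and 12, and 4.14, 3.97, 4.32, 4.53 and 4.03 in kidney arrays 7, 8, 9, 10 and 11. The groups lay far apart, and the difference was 8.08 (standard error 0.28, adjusted p = 2.00e-19). No folds are given for these genes, since the table's minimum is 2.44 and levels near it carry no detection call. SFTPC, surfactant protein C, measured 12.40, 12.40, 12.47, 12.10 and 12.20 in the lung arrays and 5.54, 5.88, 5.55, 5.60 and 5.68 in the kidney arrays. Its arrays did not overlap and differed by 6.66 (standard error 0.28, adjusted p = 1.30e-17). CXCL17, a mucosal chemokine, ranged from 11.62 to 11.94 in lung and from 4.70 to 5.63 in kidney, 6.56 apart (adjusted p = 8.39e-18).

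The next 12 genes in order of size differed by 4.86 to 5.38. TPPP3, a tubulin-binding protein of ciliated cells, was 5.38 higher in lung, although lung array 12 at 10.47 lay below the others, which reached 11.18. The chemokine CCL3 was 5.32 higher on the probe set used here, and 2.48 and 0.42 higher on its other probe sets. GRO1, a neutrophil-attracting CXC chemokine, was 5.07 higher, with 1.45 to 1.97 on its other probe sets. AGR2, a disulfide isomerase of mucus-secreting cells, varied from 7.96 to 10.34 in lung and from 3.88 to 4.53 in kidney, so the gap between organs (5.05) exceeded a wide spread within lung. The metalloprotease MMP19 was 5.01 higher on one probe set and -0.02 apart on the other, so its difference rests on the probe set chosen. A2M, a plasma protease inhibitor, and MEOX2, a homeobox regulator of mesenchyme and vessels, were 4.98 and 4.97 higher. Lactoperoxidase (LPO), an antimicrobial airway enzyme, was 4.97 higher, and the trefoil peptide TFF2, a mucosal repair factor, was 4.95 higher. The paraoxonase PON1, the trypsin inhibitor SPINK1 and complement factor D (CFD) followed at 4.91, 4.86 and 4.86. PON1 was the most variable of these 15 genes beside SPINK1, with 7.66 in lung array 12 and 9.32 to 10.49 in the other lung arrays.

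**Figure D1:**
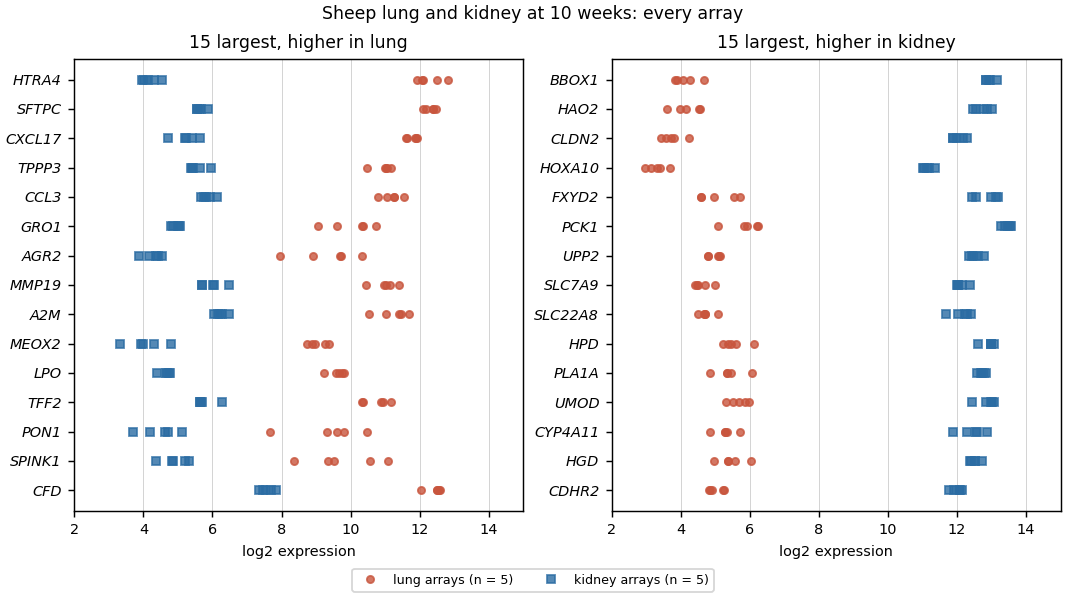
The 15 genes with the largest differences in each direction, with log2 expression on the horizontal axis and 1 point per array (5 lung arrays as circles, 5 kidney arrays as squares). The 30 genes were chosen among those whose arrays do not overlap between the tissues. HTRA4 and BBOX1 stand furthest apart, and AGR2, PON1 and SPINK1 are widely scattered within lung.

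The largest difference higher in kidney was BBOX1, gamma-butyrobetaine hydroxylase, the last enzyme of carnitine synthesis. It measured 12.92, 13.16, 12.85, 12.95 and 12.84 in kidney arrays 7, 8, 9, 10 and 11, and 4.07, 3.84, 4.27, 3.89 and 4.67 in lung arrays 7, 8, 10, 11 and 12. The groups were 8.79 apart, with a standard error of 0.80 and an adjusted p of 2.68e-10, against 8.32e-14 when the 10 arrays were fitted alone. A second BBOX1 probe set differed by 1.90 in the same direction. HAO2, a peroxisomal hydroxyacid oxidase, measured 12.54, 13.01, 12.75, 12.87 and 12.46 in kidney and 3.61, 3.98, 4.52, 4.54 and 4.16 in lung. It was 8.56 higher in kidney (standard error 0.25, adjusted p = 6.97e-21). CLDN2, the cation- and water-permeable claudin of the proximal tubule, ranged from 11.87 to 12.28 in kidney and from 3.43 to 4.23 in lung, 8.29 apart on this probe set and 3.94 on the other.

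The next 12 genes on the kidney side differed by 6.99 to 7.85. HOXA10, a posterior homeobox gene, measured up to 11.36 in kidney and 2.96 to 3.67 in lung (7.85 higher). FXYD2, the gamma subunit of the renal sodium pump, was 7.77 higher, and PCK1, the gluconeogenic phosphoenolpyruvate carboxykinase, 7.60 higher. The uridine phosphorylase UPP2 was 7.56 higher. The transporters SLC7A9, which takes up cystine and basic amino acids, and SLC22A8, which takes up organic anions from blood, were 7.50 and 7.39 higher. HPD and HGD, successive enzymes of tyrosine breakdown, were 7.38 and 7.05 higher. PLA1A, a phosphatidylserine-specific phospholipase, was 7.31 higher and 6.79 on its second probe set. UMOD, the most abundant protein of urine, was 7.20 higher with the narrow standard error of 0.16 (adjusted p = 1.06e-23). The fatty acid hydroxylase CYP4A11 and CDHR2, a cadherin of the brush border, were 7.16 and 6.99 higher. Another CDHR2 probe set gave -3.55 as lung minus kidney. These 15 genes in each direction were chosen among genes whose arrays do not overlap, so their lack of overlap is part of the choice.

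Alveolar and airway epithelial genes were higher in lung in most cases. Of 14 measured alveolar type II genes, 8 were higher in lung and 0 in kidney, with a median difference of 0.78. SFTPB, which spreads the surfactant film, measured 12.41, 11.44, 11.74, 11.14 and 10.86 in lung and 6.95 to 7.22 in kidney, and was 4.45 higher (adjusted p = 1.12e-14). The collectins SFTPD and SFTPA1, surfactant proteins of host defence, were 4.18 and 2.38 higher. SFTPA1 showed 5.98 and 1.50 on its other probe sets and SFTPB 6.71, so the size depends on the probe set while the direction did not. LAMP3, a lamellar body protein, was 4.12 higher and LPCAT1, which makes surfactant lipid, 2.20 higher. MUC1, CTSH, SFTA2 and CEBPA did not pass, with differences of 0.22 to 0.34, though SFTA2 reached an adjusted p of 0.0233 with the block.

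Type I genes moved together more fully. Of 12 measured, 11 were higher in lung and 0 in kidney, with a median of 2.16. AGER, the receptor for advanced glycation end products and a membrane marker of type I cells, measured 11.99, 12.29, 12.02, 12.17 and 12.19 in lung and 7.61, 7.93, 7.73, 7.71 and 7.67 in kidney. The groups were 4.40 apart (adjusted p = 1.44e-14) and 3.61 apart on a second probe set. The caveolin genes CAV1 and CAV2, coat proteins of caveolae, were 4.08 and 3.17 higher. GPRC5A, HOPX and PDPN were 3.16, 2.69 and 2.32 higher. The mean of the 12 genes was 9.47 in lung array 12 and 9.77 to 9.79 in the other lung arrays, against 7.47 to 7.56 in kidney.

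Of 10 measured airway genes, 9 were higher in lung and 0 in kidney, with a median of 1.77. Beside TPPP3 these were led by CYP2B6, a cytochrome P450, at 4.77 higher and the trefoil peptide TFF3 at 4.63 higher. CCDC39, needed to assemble the ciliary inner dynein arm, was 2.49 higher, the secreted defence protein BPIFB1 2.23 and the basal cell keratin KRT5 1.32 (0.34 on another probe set). PIGR, which carries immunoglobulin A across epithelium, measured 8.82 in lung and 8.80 in kidney (adjusted p = 0.942).

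Most endothelial genes were higher in lung. Of 24 measured, 19 were higher in lung (17 with the block), 2 in kidney and 3 did not pass, with a median of 0.82. LYVE1, a hyaluronan receptor of lymphatic and some blood endothelium and of tissue macrophages, measured 11.90, 11.67, 11.90, 11.54 and 10.85 in lung and 6.43, 6.78, 7.37, 7.46 and 7.12 in kidney. It was 4.54 higher with no overlap (adjusted p = 5.10e-13). TMEM100, a BMP-dependent endothelial protein, was 3.67 higher, and CDH5, the cadherin of endothelial junctions, 1.91 higher. CALCRL and RAMP2, which together form an adrenomedullin receptor, were 1.85 and 1.69 higher, and ROBO4 was 1.39 higher. In kidney CA4, a membrane carbonic anhydrase of lung capillaries and also of renal tubules, was 1.23 higher, and the VEGF receptor FLT1 was 0.93 higher. PLVAP, NOSTRIN and EGFL7 did not pass (-0.45, -0.11 and 0.15).

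Macrophage, myeloid and lymphocyte genes were mostly higher in lung, with no member called higher in kidney. Of 21 measured macrophage and myeloid genes 19 were higher in lung, with a median of 2.0. C1QA, a chain of complement C1q made by macrophages, measured 10.14 in lung array 12, up to 11.23 in the other lung arrays and 7.14 to 7.64 in kidney, 3.51 apart (adjusted p = 7.15e-11). The lysosomal marker CD68 was 3.20 higher, C1QB 2.89, the Fc receptor chain FCER1G 2.67, the lectin LGALS3 2.62 and ALOX5AP, which serves leukotriene synthesis, 2.4. ITGAM and MMP9 did not pass. Of 17 lymphocyte genes 15 were higher in lung, with a median of 1.03. They were led by the B cell receptor chain CD79A (3.13), the T cell genes CD8A (2.87), CD3E (2.22) and CD3D (1.72), and the kinase LCK (1.76). CD4 and MS4A1 did not pass, with means near 5 in both tissues on the probe sets used. A second MS4A1 set measured 5.52 in lung and 4.50 in kidney (1.03 higher in lung), and a second CD4 set differed by 0.21.

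Antibody and granulocyte genes followed the same direction. Of 5 plasma cell genes 4 were higher in lung, among them the immunoglobulin heavy chain IGHM (3.09), MZB1 (1.43) and the joining chain JCHAIN (1.18). Of 9 granulocyte and mast cell genes 5 were higher in lung. S100A12, a calcium-binding protein of neutrophils, measured 10.26 to 10.82 in lung and 5.16 to 6.36 in kidney (4.43 higher), and S100A8 was 2.71 higher. The tryptase TPSB2 of mast cells was 1.20 higher. MPO and HDC did not pass. Of 11 class II MHC genes 5 were higher in lung, 7 under the block by title number, led by BOLA-DMA (1.61), BOLA-DRB3 (1.24) and BOLA-DOA (1.08). Without lung array 12 and kidney array 8 the counts were 5 in lung and 1 in kidney.

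Matrix genes were mostly higher in lung, and basement membrane genes were divided. Of 29 measured fibrillar collagen and elastic fibre genes, 21 were higher in lung and 2 in kidney (20 and 3 with the block), with a median of 0.70. ELN, elastin, measured 10.07, 9.89, 9.99, 9.80 and 9.80 in lung and 6.44, 6.33, 6.28, 6.73 and 6.61 in kidney. The difference was 3.43 (adjusted p = 3.89e-13) and 0.64 on a second probe set. MFAP5, a microfibril protein, was 4.12 higher, and LOX, which cross-links collagen and elastin, 2.60 higher. Fibronectin (FN1), tenascin C (TNC) and versican (VCAN) were 3.57, 3.50 and 3.45 higher. Second probe sets gave 0.84 for FN1 and -0.27 for TNC, so the TNC difference rests on one probe set. Higher in kidney were LTBP1, which tethers latent TGF-beta (1.43), and the elastic fibre protein FBLN5 (0.91), with no overlap for either.

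Of 13 basement membrane genes 6 were higher in lung and 3 in kidney (2 with the block), with a median of 0.05. The laminin chain LAMA4, found around vessels and muscle, was 2.11 higher in lung and LAMB2 1.05 higher. COL4A3 and COL4A4, chains of the mature glomerular basement membrane, were 0.90 and 0.85 higher in kidney, each without overlap, and -0.14 and 0.04 apart on further probe sets. Of 13 smooth muscle and pericyte genes 7 were higher in lung and 0 in kidney, with KCNJ8 (2.27), CNN1 (2.17), DES (1.33) and MYH11 (1.32) leading. This count fell to 5 without lung array 12, whose mean over the list was the highest at 9.01, and to 4 without lung array 12 and kidney array 8.

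Proximal tubule genes gave the widest gap of all lists. Of 25 measured, 23 were higher in kidney and 1 in lung, and the median difference was -4.21. SLC22A6, the organic anion transporter of the basolateral membrane, measured 11.91, 11.21, 11.81, 11.75 and 11.72 in kidney arrays 7, 8, 9, 10 and 11 and 4.53 to 5.31 in lung. It was 6.75 higher (standard error 0.20, adjusted p = 6.30e-21). CUBN, cubilin, the receptor that takes up filtered protein and vitamin carriers, measured 12.83 to 13.06 in kidney and 5.78 to 6.39 in lung (6.93 higher). ENPEP, the aminopeptidase that cleaves angiotensin II, was 5.97 higher, and another probe set gave -2.99 as lung minus kidney. The glucose transporter SLC5A1 was the gene called higher in lung, by 0.35, with overlapping arrays and an adjusted p of 0.118 under the block. MEP1B did not pass.

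Distal segments followed with fewer large differences. Of 16 loop and distal convoluted tubule genes 13 were higher in kidney and 0 in lung, with a median of -1.55. SLC12A3, the thiazide-sensitive sodium chloride cotransporter, measured 9.97, 9.90, 10.25, 10.68 and 9.90 in kidney and 4.49 to 5.42 in lung (5.11 higher, adjusted p = 3.82e-18). The potassium channel KCNJ10 was 4.61 higher, the calcium-sensing receptor CASR 3.01 and CLDN10 2.64. SLC12A1, the loop cotransporter, measured 4.16 in kidney and 3.97 in lung and did not pass, at the low end of this scale, where no detection calls were used. EGF and KNG1 did not pass. Of 13 principal cell genes 7 were higher in kidney and 1 in lung. HSD11B2, which inactivates cortisol and so protects the aldosterone receptor, measured 10.80 to 11.04 in kidney and 4.89 to 5.89 in lung (5.62 higher, adjusted p = 4.69e-21). The sodium channel chain SCNN1G was 2.30 higher, KCNE1 2.57 and AQP3 2.11. Of 9 intercalated cell genes 7 were higher in kidney and 0 in lung, or 6 and 1 with the block, led by the bicarbonate exchanger SLC4A9 (4.81), the proton pump subunit ATP6V0A4 (4.78) and carbonic anhydrase CA2 (2.93). RHCG and RHBG, ammonia channels, were 1.94 and 1.56 higher.

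Glomerular genes did not separate the organs as a group. Of 15 measured, 5 were higher in lung and 4 in kidney, with a median of 0.06. TRPC6, a cation channel of podocytes and of vascular smooth muscle, was 2.30 higher in lung, TCF21 1.70, CLIC5 1.04 and SYNPO 0.98. ARHGAP24, a regulator of podocyte shape, was 0.98 higher in kidney (-0.04 on 1 of its other probe sets), beside COL4A3 and COL4A4. VEGFA, NES, ACTN4 and CD2AP did not pass.

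Claudins and aquaporins, which set the permeability of epithelia, each had members on both sides. Of 16 measured claudin and tight junction genes 6 were higher in lung and 7 in kidney, with 4 in lung both under the block and without lung array 12. CLDN18, the claudin of alveolar epithelium, measured 7.03, 6.33, 6.67, 5.98 and 4.83 in lung and 2.87 to 3.71 in kidney (2.84 higher), with lung array 12 the lowest of its group. CLDN5 of endothelium, CLDN7 and CLDN3 were 1.33, 1.25 and 1.17 higher in lung. Beside CLDN2 and CLDN10, the paracellular magnesium pore CLDN16 was 1.90 higher in kidney. Among 7 aquaporins, AQP7, which carries water and glycerol, measured 9.13 to 9.57 in kidney and 4.36 to 5.12 in lung (4.62 higher). AQP3, AQP11 and AQP1 were 2.11, 1.69 and 0.72 higher in kidney, and 1 of 3 AQP1 probe sets pointed to lung (0.37). AQP4 (2.84, and 3.58 on a second probe set) and AQP5, the water channel of type I cells (1.99), were higher in lung, AQP4 although it also stood in the principal cell list.

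Mitochondrial and peroxisomal genes were higher in kidney almost without exception. All 39 measured genes of fatty acid oxidation and peroxisomes were higher in kidney, against 24.6% of all genes, with a median of -1.59. Beside HAO2 the largest were the acyl-CoA synthetase ACSM2B (6.61), the fatty acid transporter SLC27A2 (4.94), PIPOX, which oxidises pipecolate and sarcosine (4.15), and the peroxisomal enzymes ACAA1 (3.80) and ACOX2 (3.78). Another PIPOX probe set gave -1.66 as lung minus kidney. ACSM2B measured 10.70 ± 0.17 in kidney and 4.10 ± 0.26 in lung (SD, n = 5 each). The mean over the 39 genes ranged from 10.51 to 10.69 in the kidney arrays and from 8.43 to 8.56 in the lung arrays. Of 72 genes of the tricarboxylic acid cycle and oxidative phosphorylation 70 were higher in kidney and 1 in lung (IDH3A, by 0.35, adjusted p = 0.0501 with the block), with a median of -0.77. These differences were numerous and small: the largest were SDHA, a subunit of succinate dehydrogenase (2.05), UQCRQ of complex III (2.01), NDUFV1 of complex I (1.87) and ATP5MC1 of ATP synthase (1.86). UQCRC1 was 1.70 higher on one probe set and -0.07 apart on another.

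**Figure D2:**
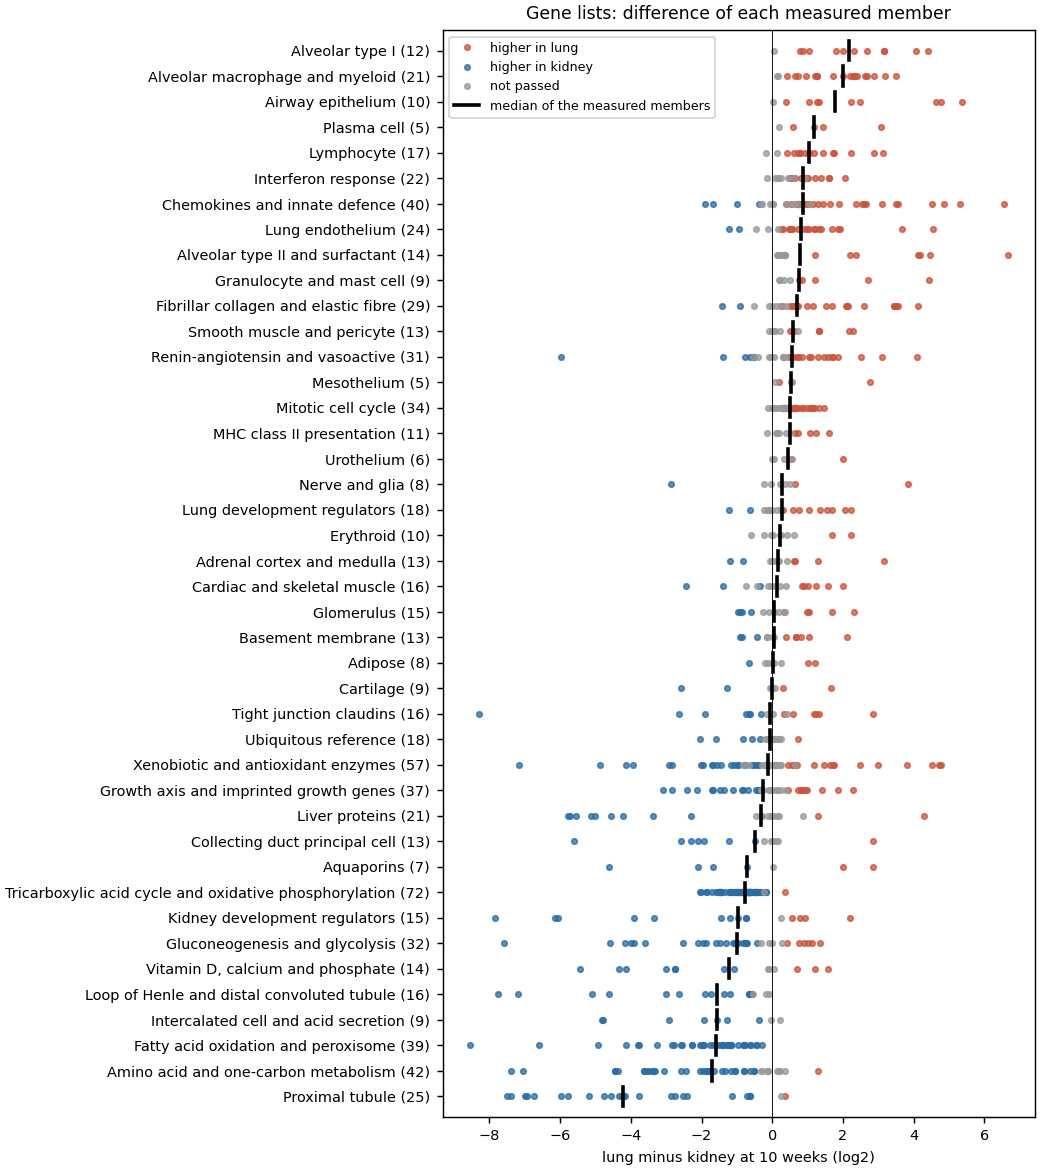
Lung-minus-kidney difference (log2) of each measured member of 42 gene lists, with 1 point per gene coloured by the test, the number of measured genes in brackets and a bar at the median. Lists run from alveolar type I (median 2.16) at the top to proximal tubule (median -4.21) at the bottom, and all 39 fatty acid oxidation genes lie on the kidney side.

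Glucose-making enzymes were among the larger differences and glycolytic enzymes were divided. Of 32 genes of gluconeogenesis and glycolysis 22 were higher in kidney and 6 in lung, with a median of -0.99. PCK1 measured 13.39, 13.57, 13.53, 13.48 and 13.26 in kidney and 6.23, 6.21, 5.90, 5.07 and 5.82 in lung. The mitochondrial PCK2 was 4.59 higher in kidney, glucose-6-phosphatase G6PC1 4.17, fructose-bisphosphatase FBP1 4.0, ketohexokinase KHK 3.90 and pyruvate carboxylase PC 3.61. Other probe sets gave -0.20 for G6PC1, -1.83 and -0.20 for KHK and -0.06 and -0.30 for PC as lung minus kidney, so these sizes rest on the brightest probe set. Higher in lung were the hexokinases HK3 (1.34) and HK1 (0.91), LDHA (1.11), the regulator PFKFB3 (1.02) and PFKP (0.77). Further LDHA probe sets gave -0.03 and -0.02, and further PFKFB3 sets 0.09 and 0.12.

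Of 42 genes of amino acid and one-carbon metabolism 32 were higher in kidney and 1 in lung, with a median of -1.70. After HPD and HGD came ASS1, which makes the arginine precursor argininosuccinate (4.45), ACMSD of tryptophan breakdown (4.45), PRODH2 (4.37) and the dopamine-forming decarboxylase DDC (3.64). The PRODH2 set matches several transcripts, and another set gave -1.15 as lung minus kidney. The branched-chain transaminase BCAT1 was 1.29 higher in lung on a probe set that matches several transcripts and -0.06 to 0.12 on the others. GLUL, OAT, PRODH and BCAT2 did not pass.

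Enzymes of foreign compounds and of redox balance were called on both sides, as were all genes (25.4% higher in lung and 24.6% in kidney). Of 57 measured, 16 were higher in lung and 21 in kidney, with a median of -0.13. The lung side held FMO2, the flavin monooxygenase of lung, which measured 11.32, 11.69, 11.95, 11.69 and 11.04 against 6.39 to 7.12 in kidney (4.71 higher, adjusted p = 6.78e-14). It also held CYP4B1 (4.52, adjusted p = 2.83e-18), CYP2B6, the alcohol dehydrogenase ADH4 (3.82), the glutathione peroxidase GPX2 (2.98) and CYP2S1 (2.49, with 0.56 on another probe set). The kidney side held CYP4A11, CYP4A22 (4.88), GPX3, the secreted plasma glutathione peroxidase (4.14), AKR1C3 (3.95) and EPHX2 (2.85, with -0.03 as lung minus kidney on another probe set). GPX3 measured 13.12 to 13.39 in kidney and 8.69 to 9.79 in lung. SULT2A1 was 2.93 higher in kidney and -0.03 apart on another probe set.

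Of 14 genes of vitamin D, calcium and phosphate handling, 8 were higher in kidney and 3 in lung. GC, the plasma vitamin D binding protein, measured 11.76, 11.60, 11.48, 11.92 and 11.75 in kidney and 5.73 to 7.02 in lung (5.45 higher, adjusted p = 1.98e-07). The phosphate transporter SLC34A1 was 4.35 higher in kidney, and its lung counterpart SLC34A2 was 1.20 higher in lung. S100G, calbindin D9k, was 4.14 higher, the parathyroid hormone receptor PTH1R 2.74 and alkaline phosphatase ALPL 2.76. CYP27A1, a sterol and vitamin D hydroxylase, was 1.59 higher in lung.

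Vasoactive and inflammatory genes were mostly on the lung side. Of 31 renin-angiotensin and vasoactive genes 17 were higher in lung and 6 in kidney. EDN1, the vasoconstrictor endothelin, measured 12.30, 12.01, 11.67, 11.15 and 11.58 in lung and 7.52, 7.43, 8.32, 7.35 and 7.63 in kidney, 4.09 apart (adjusted p = 1.67e-10). Its receptor EDNRA was 3.10 higher in lung and cyclooxygenase PTGS1 2.50 higher. PTGS2, the inducible cyclooxygenase, was 1.73 higher on its brightest probe set, and 3.48 and 0.03 on the others. In kidney, beside ENPEP, the protease CTSA was 1.39 higher and adrenomedullin (ADM) 0.55 higher.

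Of 40 chemokine and innate defence genes 26 were higher in lung and 4 in kidney, with a median of 0.86. CCL4 measured 9.32, 9.16, 9.39, 9.02 and 8.34 in lung and 4.40 to 4.69 in kidney (4.52 higher). The neutrophil chemokine CXCL8 and the cytokine IL1B were 3.55 and 3.51 higher. CXCL8 was 8.62 in lung array 12 and 9.96 to 10.31 in the others. SERPING1, the C1 inhibitor, and complement factor I (CFI) were 1.89 and 1.69 higher in kidney. Complement C3 was 1.05 higher in lung without overlap and did not pass (adjusted p = 0.0659), and reached 3.16e-04 with the block. Of 22 interferon response genes 14 were higher in lung and 0 in kidney, led by the immunoproteasome genes PSMB8 (2.07) and PSMB9 (1.60), the guanylate-binding protein GBP5 (1.60) and the peptide transporter TAP1 (1.39).

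Regulators of organ formation differed between the organs, with larger differences on the kidney side. Of 15 kidney development genes 10 were higher in kidney and 4 in lung, with a median of -0.97. HOXA9 measured 11.05, 11.42, 11.07, 11.10 and 11.02 in kidney and 4.58 to 5.27 in lung, and HOXD10 11.43 to 12.14 in kidney and 5.26 to 6.16 in lung. They were 6.16 and 6.06 higher. EMX2, a homeobox gene of the urogenital ridge, was 3.92 higher and TFAP2A 3.35 higher. WNT11, a ligand of the ureteric bud tip, was 2.19 higher in lung, and IRX3 and RET were 0.93 and 0.57 higher in lung. Of 18 lung development genes 10 were higher in lung and 2 in kidney, with a median of 0.27. With the block, with the 10 arrays alone or without lung array 12, 8 were higher in lung. GATA6 measured 11.85 to 12.29 in lung and 10.00 to 10.20 in kidney (2.05 higher), KLF4 was 2.23 higher, FOXP2 1.56 and FOXP1 1.34. Another FOXP1 probe set gave 0.34. FGF10, the mesenchymal ligand of airway branching, was 1.03 higher in lung. ELF5 was 1.22 higher in kidney and ID1 0.62 higher.

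Growth genes did not share a direction. Of 37 measured growth axis and imprinted genes 16 were higher in kidney and 10 in lung, with a median of -0.26. IGF2, the fetal growth ligand, measured 9.63, 9.53, 8.78, 9.89 and 9.69 in lung and 9.58, 8.61, 9.46, 9.21 and 9.82 in kidney. The arrays overlapped and the difference of 0.17 did not pass (adjusted p = 0.671). IGF1 was 0.80 higher in lung, though its brightest probe set matches several transcripts and the others gave 0.00, 0.53 and 1.25. The binding proteins IGFBP2, IGFBP5 and IGFBP3, which bind IGFs in the tissue or in plasma, were 3.08, 2.83 and 2.12 higher in kidney. IGFBP2 measured 12.20 to 12.79 in kidney and 9.12 to 9.66 in lung. IGF1R was 0.69 higher in kidney, with overlapping arrays because kidney array 8 was at 6.23 and the other kidney arrays at 6.97 to 7.16. The growth hormone receptor GHR was 1.68 higher in kidney on its brightest probe set, while its other 10 probe sets lay between -0.16 and 0.22.

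Imprinted genes differed one by one. DLK1, a Notch-like inhibitor of differentiation, measured 12.45, 12.24, 12.14, 12.28 and 12.56 in kidney and 10.00, 10.14, 8.75, 10.01 and 10.69 in lung. It was 2.42 higher in kidney with no overlap, and the noncoding MEG3 of the same imprinted region was 1.71 higher. MEST measured 9.81 to 10.03 in lung and 7.41 to 8.46 in kidney (1.87 higher, with 0.66 to 0.97 on its other probe sets). NNAT was 2.28 higher in lung. PLAGL1 did not pass (0.11). EZH2, a histone methyltransferase of dividing cells, was 0.93 higher in lung.

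Mitotic genes leaned to lung by small amounts. Of 34 measured 20 were higher in lung and 0 in kidney, with a median of 0.51. The largest were ASPM (1.45, and -0.11 on another probe set), the kinetochore gene NDC80 (1.31), CDCA8 (1.19, and 0.16 on another), cyclin B1 (CCNB1, 1.17), CKS2 (1.13) and NUSAP1 (1.09). CCNB1 measured 8.87 ± 0.15 in lung and 7.70 ± 0.68 in kidney (SD, n = 5 each), so the spread was wider in kidney. CDK1 was 0.87 higher in lung with overlapping arrays. The list means ranged from 7.52 to 7.77 in lung and from 6.83 to 7.40 in kidney. PCNA, RRM1, MAD2L1 and KIF20A did not pass.

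Genes known for plasma proteins made by the liver were high in kidney for part of the list. Of 21 measured, 10 were higher in kidney and 2 in lung, with a median of -0.31. F2, prothrombin, measured 11.92, 12.04, 12.12, 12.32 and 12.10 in kidney and 5.92 to 6.55 in lung, and was 5.79 higher (standard error 0.67, adjusted p = 2.93e-08), but -0.04 apart on a second probe set. APOA2, a protein of high-density lipoprotein, measured 12.24, 11.43, 11.94, 12.33 and 11.63 in kidney and 5.66 to 6.54 in lung (5.72 higher, adjusted p = 3.14e-07). APOH and APOB were 5.55 and 5.14 higher, and SERPINA1, alpha-1 antitrypsin, and TTR, transthyretin, 5.02 and 4.56 higher. Second probe sets gave 5.59 for APOB and 4.39 for SERPINA1 in the same direction. HP, haptoglobin, went the other way, with 9.35, 9.44, 10.27, 10.52 and 11.77 in lung and 5.57, 5.74, 5.79, 7.08 and 5.68 in kidney (4.30 higher in lung), and APOA1 was 1.30 higher in lung.

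Other liver genes did not differ to the same degree. ITIH2 did not pass (0.18), nor did APOC3, whose arrays ranged widely in both tissues. AHSG did not pass either (-0.04), on a probe set that matches several transcripts. Its other sets gave -0.22 to 1.26 as lung minus kidney, so these sets cannot decide how far AHSG differed. Of members named here after their values were seen, albumin (ALB) was 0.31 higher in kidney, with 10.92 to 11.22 against 10.58 to 10.84 in lung, and AFP was 3.37 higher. ALB stayed between 10.52 and 11.32 in every array of the series. It read 10.78 and 10.55 in fetal lung arrays 26B and 80B, where HRG, APOA2, TTR and SERPINA1 stood above the other fetal lung arrays. With so flat a reading, this probe set cannot decide how far albumin differed between the organs. The urea cycle gene CPS1 measured 3.94 in kidney and 3.96 in lung, ARG1 4.18 and 4.07, TAT 4.17 and 4.30, and fibrinogen FGB 4.36 and 4.32. None of these 4 passed. The list mean was 8.64 in kidney array 10, against 8.22 to 8.33 in the other kidney arrays. Whether any of the difference comes from another tissue in the samples was not tested.

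**Figure D3:**
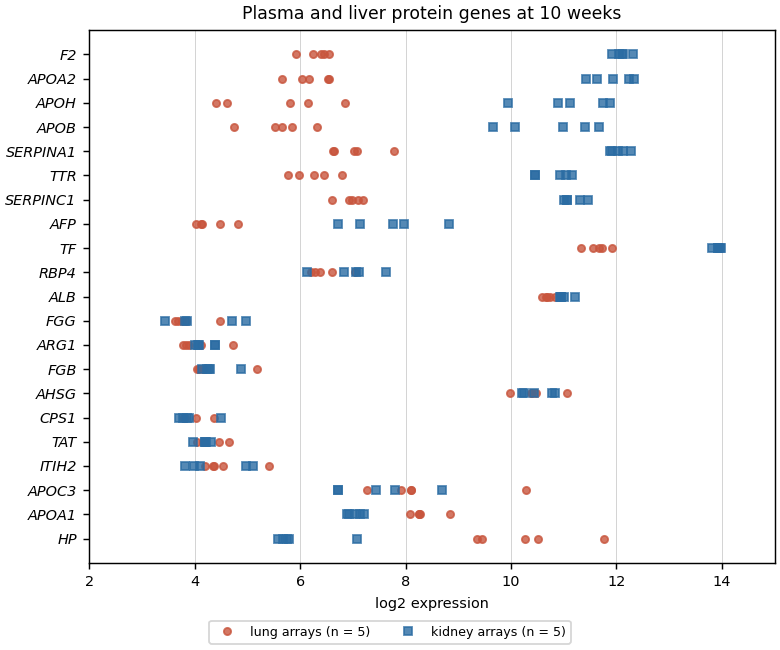
Log2 expression of 21 genes known for liver-made proteins in each of 5 lung arrays (circles) and 5 kidney arrays (squares) at 10 weeks. F2, APOA2, APOH, APOB, SERPINA1 and TTR lie at 9.66 or above in kidney and 7.77 or below in lung, CPS1, ARG1, TAT and FGB lie low in both tissues, and HP is high in lung.

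Most lists of other tissues that a dissected piece could hold stayed closer to the background, with single genes apart. Of 13 adrenal genes 4 were higher in lung and 2 in kidney (median 0.15). CYP17A1, a steroid hydroxylase, was 3.16 higher in lung, with 7.69 to 9.65 against 5.34 to 5.76, while CYP11B1, NR5A1 and PNMT did not pass. CHGA was 1.19 higher in kidney, and 0.32 higher in lung on another probe set. Of 16 cardiac and skeletal muscle genes 6 were higher in lung, led by PLN (2.0) and CKM (1.59, with 0.28 on another probe set), and 3 in kidney (5 with the block), led by TNNC1 (2.45) and TNNT2 (1.40). In nerve and glia STMN2 was 3.83 higher in lung and UCHL1 2.87 higher in kidney, of 8 measured, with 2 called for lung (3 with the block) and 1 for kidney. Adipose genes (8 measured, 2 higher in lung and 1 in kidney) and cartilage genes (9 measured, 2 each way) had medians of 0.02 and -0.01, with HAPLN1 1.66 higher in lung and CNMD 2.57 higher in kidney. Of 5 mesothelial genes 3 were higher in lung, a share above the 25.4% of all genes, and of 6 urothelial genes 2. The mean of the mesothelial list was 7.73 to 8.04 in lung and 6.96 to 7.18 in kidney. KRT19, in the mesothelial list, and KRT7, in the urothelial list, were 2.76 and 2.0 higher in lung. Both are keratins of many simple epithelia, and MSLN, UPK2 and KRT20 did not pass. Without lung array 12 the counts higher in lung fell from 3 to 1 and from 2 to 1 for these 2 lists, and with the block they were 2 and 3. Of 10 erythroid genes HBB and HBG were higher in lung (1.70 and 2.22), both on probe sets that match several transcripts. Second sets of that kind gave 2.17 and 2.48. Neither gene was called when such sets were left out. The sets then used read low, with lung means of 5.75 (HBB) and 5.68 (HBG), so that fit cannot decide whether globin differed. Under the block 4 erythroid genes were called higher in lung and 2 in kidney. The part these cell types play in the differences above was not tested.

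Reference genes in common use were not all level. Of 18 ubiquitous genes 5 were higher in kidney and 1 in lung, or 4 and 2 with the block. GAPDH measured 12.33 ± 0.18 in kidney and 10.73 ± 0.37 in lung (SD, n = 5 each), a difference of 1.60 (adjusted p = 1.30e-07). SDHA was 2.05 and PGK1 0.82 higher in kidney, and all of these also belong to energy metabolism. TUBB was 0.74 higher in lung. The ribosomal and translation genes RPLP0, RPL4, RPS18 and EEF1A1 differed by 0.05 or less in either direction and did not pass.

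The tissue difference at 10 weeks was then set against that in adults, with the test on the difference between ages. In adults 4853 genes (53.0%) were called, and 3655 genes were called in the same direction at both ages, 79.7% of those called at 10 weeks and 75.3% of those called in adults. The difference itself changed for 199 genes (2.17%), more positive toward lung at 10 weeks for 62 (0.677%) and more negative for 137 (1.50%). With the number in the title as a random block the counts were 332, 114 and 218. They were 606, 213 and 393 without fetal lung arrays 26B and 80B, which stand apart from their group and enter the shared estimate of spread, and 511, 187 and 324 with array weights. The split depends on scaling: of 195 genes called after repeated quantile normalization 95 were more positive, and of 188 called with arrays centred on their medians 106 were. Leaving out single arrays gave 133 genes without lung array 7, and up to 230 without lung array 12, where the more positive count was 41 and 85. The more negative count fell to 90 without kidney array 10. The comparisons with adults and with fetuses share the 10-week arrays.

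DLK1 changed most in the positive direction. Its lung-minus-kidney difference was -0.52 at fetal day 90, -2.42 at 10 weeks and -5.83 in adults, a change of 3.42 between the last 2 (standard error 0.35, adjusted p = 5.36e-07). Kidney arrays stayed between 11.64 and 12.56 at the later ages, while lung went from 9.92 ± 0.71 at 10 weeks to 6.30 ± 0.49 in adults (SD, n = 5 each). KCNE1, a potassium channel subunit, moved in kidney instead. It measured 9.06, 7.72, 8.26, 7.67 and 7.81 in kidney at 10 weeks and 10.05 to 10.69 in adults, with lung means of 5.53 and 5.52 (change 2.32, adjusted p = 6.84e-06). MYBPC1, a myosin-binding protein of skeletal muscle, was 0.79 higher in kidney at 10 weeks with overlapping arrays (-0.13 and -0.11 on other probe sets). That call was lost with the block (adjusted p = 0.0720) and without kidney array 10 or 11 or lung array 10 or 12 (adjusted p up to 0.140). MYBPC1 had a kidney mean of 9.46 in adults against 6.39 at 10 weeks (change 2.78, adjusted p = 4.85e-04). NUDT11, a phosphohydrolase of inositol phosphates, had a change of 2.60, but its second probe set showed -0.08 between tissues at 10 weeks. ADH4 had a change of 2.34 (adjusted p = 0.0417), which did not pass in 8 of the 10 fits that left out a single array (adjusted p up to 0.0745).

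In the negative direction CCL26, an eotaxin that attracts eosinophils, separated the ages most clearly. At 10 weeks it measured 12.24, 11.96, 12.24, 12.06 and 12.28 in kidney and 9.19, 9.86, 10.03, 9.63 and 9.87 in lung, a gap of 2.44 with no overlap. In adults the means were 12.08 and 12.05, so the gap had closed to -0.03 (change -2.41, adjusted p = 1.68e-08). CCN5, a matricellular protein, was 2.09 higher in lung at 10 weeks and 4.56 higher in adults (change -2.47), with lung array 7 at 7.75 and the other 10-week lung arrays at 5.81 to 6.14. The aggrecanase ADAMTS4 was 1.27 higher in lung at 10 weeks and 3.68 in adults (change -2.41). HBB had a change of -3.05, which came to -0.01 when probe sets matching several transcripts were left out. The set then used read 5.75 in lung and 5.30 in kidney at 10 weeks, so its low level cannot decide the change. On the main set HBB read 6.02 to 8.51 in lung at 10 weeks and 8.38 to 12.31 in adult lung. The class II gene BOLA-DQB1 had a change of -3.45 (adjusted p = 0.0393) with adult kidney arrays from 7.08 to 11.61, and its call did not pass without kidney array 8, 10 or 11 or without lung array 7, 10 or 11 (adjusted p up to 0.0762). Without probe sets that match several transcripts its change was -0.53.

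Opposite differences at both ages were called for 15 genes. ANKRD1, a stretch-responsive ankyrin protein, was 0.99 higher in lung at 10 weeks and -1.0 in adults (change 1.98, adjusted p = 0.00411). PAFAH1B2 was 0.69 and -0.83 (change 1.52), and ARHGAP42 0.50 and -0.69 (change 1.20). The 10-week difference of ARHGAP42 did not pass without kidney array 8 or 9 or lung array 7 or 11 (adjusted p up to 0.128). ABHD2 was -0.54 and 0.51 (change -1.05), and did not pass without kidney array 10, kidney array 11 or lung array 7 (adjusted p = 0.0722, 0.0527 and 0.0716). Its 10-week difference did not pass without kidney array 10 or lung array 7 (adjusted p = 0.0575 and 0.0641).

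**Figure D4:**
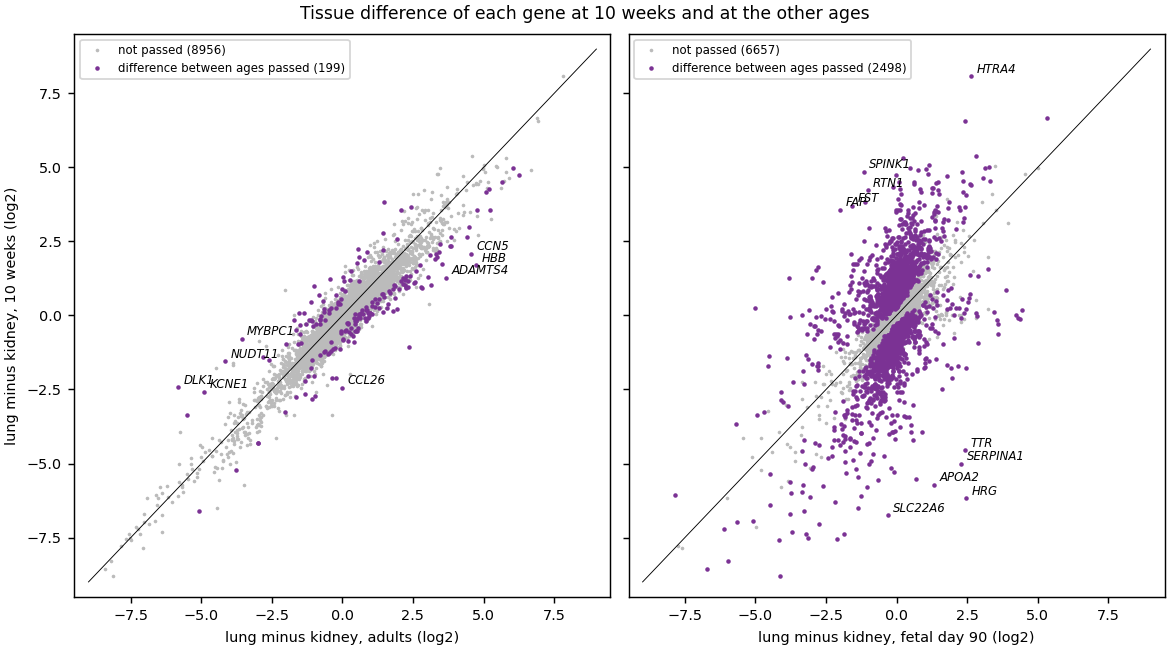
Lung-minus-kidney difference (log2) at 10 weeks on the vertical axis against that in adults (left) and at fetal day 90 (right) for 9155 genes, 1 point per gene, with a line of equal differences. Genes whose difference changed between ages are coloured, 199 against adults and 2498 against fetuses, and the fetal panel is scattered much further from the line.

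Against fetal day 90 the difference changed for 2498 genes (27.3%), 1288 more positive at 10 weeks (14.1%) and 1210 more negative (13.2%). At that age 2264 genes (24.7%) were called between the tissues. Fetal lung and kidney titles share the labels 10A, 14A and 80B. With the title label as a random block the difference changed for 2825 genes, 1425 more positive and 1400 more negative. Genes called in the same direction at both ages numbered 1545, 33.7% of those called at 10 weeks and 68.2% of those called in fetuses, and 151 were called in opposite directions. Fetal lung arrays 26B and 80B stood apart from their group, with median correlations of 0.910 and 0.977 against 0.985 to 0.987 in the other 3. Without them 2679 genes changed, 1296 more positive and 1383 more negative, and 2737 were called between the fetal tissues, 1975 in the same direction as at 10 weeks and 178 in the opposite direction. Array 26B read 12.71 for HRG and 13.13 for APOA2, and 80B 10.49 and 12.44, while the other fetal lung arrays read 5.17 to 6.19 and 7.49 to 8.88.

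The largest changes in the negative direction were HRG, SERPINA1, APOA2, TTR and SLC22A6. SLC22A6 measured 4.58 to 5.26 in fetal kidney and 11.21 to 11.91 at 10 weeks, with lung means of 4.64 and 4.93, so its tissue difference went from -0.31 to -6.75 (change -6.44, adjusted p = 1.30e-15, and -6.39 without the 2 arrays). HRG, histidine-rich glycoprotein of plasma, went from 5.60 ± 0.25 in fetal kidney to 11.22 ± 0.68 at 10 weeks (SD, n = 5 each), and its change was -8.64, or -6.29 without both arrays. SERPINA1, APOA2 and TTR changed by -7.31, -7.06 and -6.99, and by -6.24, -5.19 and -5.37 without both arrays. All 5 remained called without them. Of 21 liver protein genes 14 changed between these ages, and 13 without both arrays. Their fetal median was 1.01 with these arrays and 0.11 without them, and fetal members higher in kidney numbered 1 and 6, so the fetal level of this list rests on those arrays.

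The largest changes in the positive direction were SPINK1, FAP, HTRA4, FST and RTN1. SPINK1 measured 4.45 to 5.13 in fetal lung and 8.37 to 11.09 at 10 weeks (change 6.03, 5.99 without both arrays). FAP, a fibroblast surface protease, was 1.99 lower in lung than in kidney in fetuses, 7.72 to 8.27 in fetal kidney, and 3.57 higher at 10 weeks (change 5.56, 5.58 without both arrays). HTRA4 went from 7.96 ± 0.87 to 12.28 ± 0.37 in lung (SD, n = 5 each), with kidney at 5.32 and 4.20 (change 5.44, 4.96 without both arrays). FST, follistatin, an activin-binding protein, measured 9.61 ± 0.31 in fetal kidney and 5.94 ± 0.57 at 10 weeks (SD, n = 5 each; change 5.28, 6.72 without both arrays). RTN1, a reticulon of the endoplasmic reticulum, had a change of 5.25, and 5.71 without both arrays.

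The fetal values of the lists are read against 12.4% of all genes higher in kidney and 12.3% higher in lung at fetal day 90, or 13.9% and 15.9% without arrays 26B and 80B. The change to 10 weeks is read against 27.3% of all genes, or 29.3% without them. Proximal tubule genes had a fetal median of -2.13 (-2.25 without both arrays). Of 25, 20 were higher in fetal kidney and 17 changed (21 and 17 without both arrays). Fatty acid oxidation genes had a fetal median of -0.46 (-0.51). Of 39, 21 were higher in fetal kidney and 33 changed (26 and 32). Amino acid genes had a fetal median of -0.19 (-0.48), and 30 of 42 changed (26). Macrophage and myeloid genes had a fetal median of 0.27 (0.20), and 17 of 21 changed (18). Kidney development genes had a fetal median of -1.15 (-1.10), with 10 of 15 higher in fetal kidney in both fits. Smooth muscle genes had a fetal median of 0.31 (0.34), and 1 of 13 changed (2). From 10 weeks to adults, where 2.17% of all genes changed in limma, 0 of the 72 genes of the tricarboxylic acid cycle and oxidative phosphorylation, 2 of 39 fatty acid oxidation genes and 1 of 25 proximal tubule genes did. These shares lie near that of all genes. They come from the main fit alone, and the count over all genes rose from 199 to 606 without arrays 26B and 80B. A gene not called here may therefore still have changed.

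**Figure D5:**
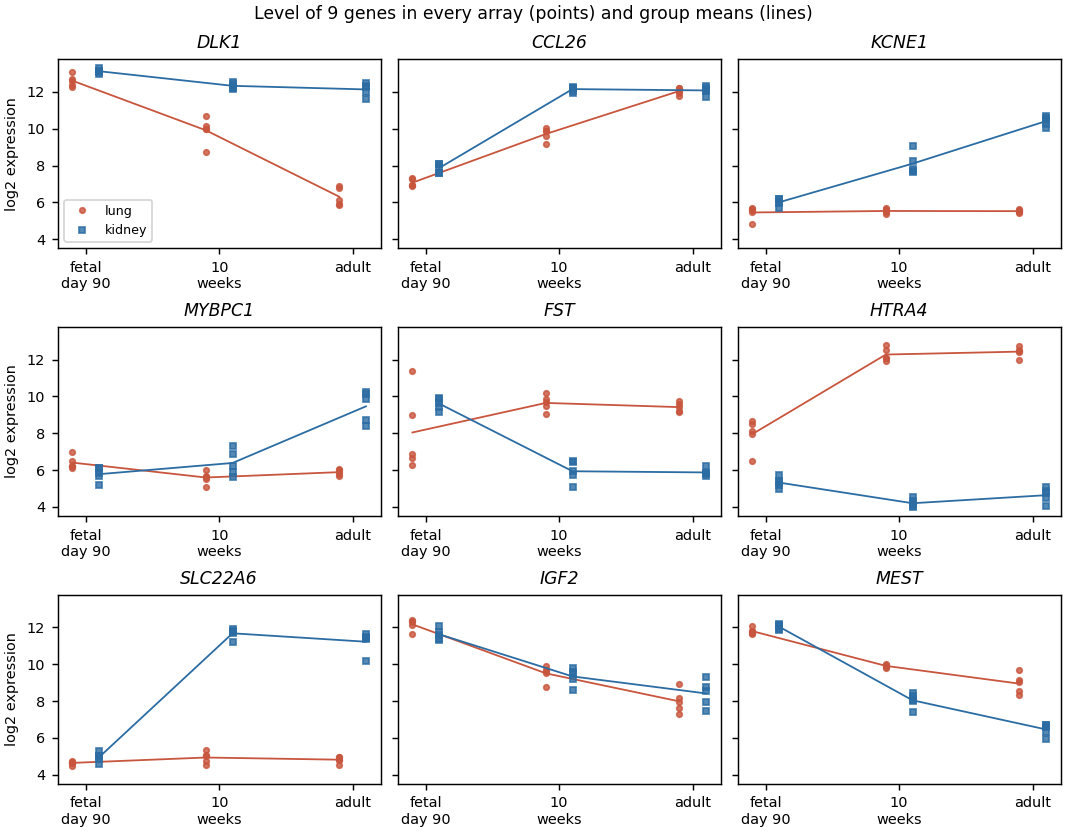
Log2 expression of 9 genes in each array (points, 5 arrays a group) at fetal day 90, 10 weeks and in adults, with lines through the group means of lung (circles) and kidney (squares). DLK1 separates the organs through lung, KCNE1 and MYBPC1 through kidney, CCL26 meets in adults, and the SLC22A6 gap opens between fetal day 90 and 10 weeks.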

How the data were processed

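Expression was measured in 30 sheep tissue samples on 1 bovine array type. Total RNA was extracted with Trizol and labelled with biotin, per the labels' protocols. The deposited values are log2 expression per probe set, which the authors obtained with RMA in Partek per the submitters' processing notes; their versions and settings are not given in the sources used here. Low signals are compressed by RMA, no detection calls were used, and a sheep transcript that differs from the cattle probe can read low. All 30 columns were mapped by title, and 0 columns were unmapped.

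Of 24128 probe sets, 13318 had 1 gene symbol in the platform annotation, 86 several and 10724 none, and 112 were controls. For each of 9155 genes the brightest probe set was kept, by the mean of 30 arrays. Of these genes 2913 had more than 1, and 8492 symbols occur in the sheep RefSeq gene table. Sizes are those of the brightest set, and other sets of a gene, not all of them printed, often gave smaller ones. Group means of 6 groups were fitted to all 30 arrays with limma 3.58.1 in R 4.3.3 (lmFit, eBayes), and p-values were Benjamini-Hochberg adjusted over all genes, with a threshold of 0.05. The change of the tissue difference between ages was tested as an interaction. The code was tested on simulated data. No sequences were used. Array number limits the precision.

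Named genes were the 15 largest non-overlapping differences per direction, up to 6 called members per direction of each of 42 lists, up to 4 members per list that did not pass, the 5 largest interactions per direction, the 4 strongest opposite pairs per interaction, and 12 growth genes; others are marked as chosen after their values were seen. The genes and lists were chosen with earlier results of these data known.

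Titles of 10-week arrays share 4 numbers between tissues. Deviations from the group means correlated at 0.101 to 0.204 between arrays with the same number, inside the range of other pairs (-0.437 to 0.469). These values cannot decide whether the numbers pair samples. The block by number was therefore fitted as an alternative and not in the main fit. Fetal titles share 10A, 14A and 80B between lung and kidney, and the random block used these labels as well. Alternatives were the block by number, arrays in the fit, probe set choice, a low-mean filter, quantile normalization, centring, trended and weighted fits, a minimum fold of 2, and each 10-week array left out; leaving out lung array 12 with kidney array 8 was added after seeing the data.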

Additional observations from a re-analysis of the deposited data

Results flagged for a closer look

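Single arrays stood apart from the other 4 of their tissue in 18 of 210 gene or list groups examined at 10 weeks, by a gap to the nearest array, as a share of the group's range, above Dixon's critical value for 5 samples; that share is the first value given for each. Chance gives about 1 in 20. Lung array 12 was low for TPPP3 (0.758; 10.47, the others up to 11.18) and NUDT11 (0.743; 4.64 against 5.64 to 5.99), and high for EZH2 (0.812; 11.23 against 10.30 to 10.47). It was also low in the mean of the alveolar type I genes (0.923; 9.47 against 9.77 to 9.79). Lung array 7 was low for CFD (0.844), and high for CCN5 (0.828; 7.75 against 5.81 to 6.14) and PLAGL1 (0.872; 10.96 against 10.38 to 10.45). It was low in the means of plasma cell genes (0.716) and of genes of the tricarboxylic acid cycle and oxidative phosphorylation (0.735; 10.57 against 10.70 to 10.75). Lung array 11 was low in the mean of alveolar type II genes (0.801; 8.68 against 8.81 to 8.85).

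Among kidney arrays, array 8 was low for HPD (0.822; 12.62 against 12.98 to 13.06), SLC22A6 (0.735; 11.21 against 11.72 to 11.91) and IGF1R (0.790; 6.23 against 6.97 to 7.16). Array 7 was low for HRG (0.763; 10.04 against 11.36 to 11.77), and array 11 was high for RTN1 (0.854; 7.81 against 6.84 to 6.98). Array 10 was high for TFF2 (0.905; 6.29 against 5.63 to 5.70) and in the means of plasma cell genes (0.714; 7.62 against 7.15 to 7.29) and liver protein genes (0.732; 8.64 against 8.22 to 8.33).

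The lung-minus-kidney difference changed between ages, by the interaction test in limma, for these named genes. From adults to 10 weeks the change was 3.42 for DLK1, 2.78 for MYBPC1, 2.60 for NUDT11, 2.34 for ADH4, 2.32 for KCNE1, 1.98 for ANKRD1, 1.52 for PAFAH1B2 and 1.20 for ARHGAP42. It was -3.45 for BOLA-DQB1, -3.05 for HBB, -2.47 for CCN5, -2.41 for both ADAMTS4 and CCL26 and -1.05 for ABHD2. From fetal day 90 it was 6.03 for SPINK1, 5.56 for FAP, 5.44 for HTRA4, 5.28 for FST and 5.25 for RTN1. It was -8.64 for HRG, -7.31 for SERPINA1, -7.06 for APOA2, -6.99 for TTR and -6.44 for SLC22A6.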

How the results depend on the processing

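Of 329 named 10-week differences, 193 kept direction and call under all 24 alternatives and 290 under all but the minimum fold of 2, at which 134 were lost; 0 reversed. That minimum left 939 genes at 10 weeks (459 higher in lung, 480 in kidney), 2 against adults (1 each way) and 367 against fetuses (216 more positive, 151 more negative). The title number as a fixed block on the 10 arrays gave 4465 genes at 10 weeks. As a random block on all 30 arrays it gave 4897 at 10 weeks and 2825 against fetuses (1425 more positive, 1400 more negative). Against adults the random block gave 332 (114 more positive, 218 more negative), though adult lung and kidney titles share no number. The fixed block also moved list counts by up to 5 genes, such as airway (9 to 8 in lung), interferon (14 to 17), chemokines (26 to 31) and fibrillar collagen and elastic fibre genes (21 and 2 to 20 and 3). Leaving out single arrays gave 4328 to 4476 genes at 10 weeks. Against adults such fits gave 41 to 85 more positive and 90 to 158 more negative genes.

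The comparison with adults moved most, and the cause was not tested. The more positive, more negative and total counts were 213, 393 and 606 without fetal lung arrays 26B and 80B, 187, 324 and 511 with array weights, and 95, 214 and 309 without lung array 12 and kidney array 8. More positive genes numbered 98 with the 20 later arrays, 95 after repeated quantile normalization and 106 after centring, where 82 were more negative. Array weights gave 1944 more negative genes against fetuses. A low level on this scale does not show absence, since signal over background was not available for these values.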

Other observations

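Homeobox genes of the HOX clusters, grouped after their values were seen, were mostly higher in kidney at 10 weeks. Of 11 measured, 7 were higher in kidney and 2 in lung. After HOXA10, HOXA9 and HOXD10 came HOXC6 (1.96 higher in kidney, and 1.03 on a second probe set), HOXB4 (1.11), HOXC5 (0.93) and HOXB7 (0.75). HOXA4 and HOXA5 were higher in lung, HOXA5 by 0.75 and by 0.40 on a second probe set. HOXB3 and HOXC13 did not pass, with -0.21 and -0.09.

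Immediate early genes, which respond within minutes to stimuli and to handling of tissue, were also grouped after their values were seen. Of 16 measured, 13 were higher in lung and 1 in kidney. FOS measured 13.10, 13.21, 12.94, 12.64 and 12.46 in lung and 8.74, 8.94, 8.60, 7.60 and 8.76 in kidney, 4.34 apart with no overlap and 2.77 apart on a second probe set. Its tissue difference was 3.71 in adults and -0.12 at fetal day 90. FOSB was 3.27 higher in lung (0.98 on a second probe set), ZFP36 3.09, NR4A1 2.93, CCN1 2.38, JUN 2.11, DUSP1 1.99, EGR1 1.96 (0.42 on a second probe set) and JUNB 1.93. IER3 was 0.37 higher in kidney with overlapping arrays, and its adjusted p was 0.115 with the block. ATF3 did not pass (0.23). How long each tissue waited before freezing is not given in the sources used here, and its part was not tested.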
